A study of Homo sapiens with 6 samples.

Results

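The EGR transcription factors EGR1, EGR2, EGR3 and EGR4 and their corepressors NAB1 and NAB2 were examined in RNA-seq of DU145, an established human prostate cancer cell line. The members were taken by gene symbol, and all 6 were rows of the table of 19727 genes. Of these, 3 (EGR1, NAB1 and NAB2) had a mean of at least 1 FPKM (fragments per kilobase of transcript, scaled to the fragments of the library) over the 6 libraries and were tested with 12322 genes in all. The other 3 (EGR2, EGR3 and EGR4) were below it. In 3 libraries the cells carried lentivirus-circCSPP1, which makes the circular RNA circCSPP1 from exons of the gene CSPP1, and in 3 libraries the control lentivirus-NC, whose genotype the labels give as normal. Both groups were stable DU145 lines made by lentiviral transduction and puromycin selection. Each group is thus a selected line of its own, and the effect of the RNA, of its vector and of the separate culture of the line cannot be told apart. The labels do not say whether the 3 libraries of a group came from separate cultures, so p-values measure only the spread between these libraries, which may be technical.

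EGR proteins are zinc finger transcription factors that bind GC-rich sites. EGR1 is an immediate early gene: growth factors, stress and ERK signaling switch it on within minutes through SRF and ternary complex factors bound to serum response elements in its promoter, and its mRNA is short-lived. NAB1 and NAB2 bind the inhibitory domain of EGR1, EGR2 and EGR3 and recruit the NuRD chromatin remodeler, and NAB2 is itself induced by EGR factors, which closes a negative feedback loop. In the prostate EGR1 is known as a factor that is often raised in cancer and that acts on growth factor genes.

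In these libraries EGR1 rose 2.72-fold and NAB2 1.47-fold with lentivirus-circCSPP1. NAB1 did not pass the test and varied widely between the lentivirus-circCSPP1 libraries. EGR2, EGR3 and EGR4 were at 0.22 FPKM or less in every library.

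Depth, read from the steps between low FPKM values, was 28900000 to 36400000 fragments per library and overlapped between the groups. CSPP1 had a mean of 9.54 ± 0.493 FPKM in the control and 19.5 ± 4.44 FPKM in the lentivirus-circCSPP1 libraries (SD, n = 3 each), and a gene-level value does not separate the linear, circular and vector RNA. Of 7 epithelial markers, 6 were at 2.44 FPKM or above in every library and KRT5 was below 1 FPKM in all of them. Among the 6, CDH1, EPCAM, KRT8, KRT18 and KRT19 were lower (log2 fold changes of -1.58 to -0.56) and KRT7 was higher (0.45) in lentivirus-circCSPP1, all with an adjusted p under 0.05 in limma. CDH1, KRT8 and KRT18 passed under all 18 alternative settings, EPCAM and KRT19 under 13, and KRT7 under 10, and none of the last 3 passed without any 1 control library or lentivirus-circCSPP1 replicate 3 (adjusted p 0.052 to 0.17). The 7 summed to 3889 to 4051 FPKM in the control and 3044 to 4033 FPKM in lentivirus-circCSPP1. KLK3 and TMPRSS2, which DU145 cells are known to lack, were below 1 FPKM everywhere. Markers of other cells were low: 5 fibroblast markers summed to 2.77 to 4.19 FPKM per control library and to between 1.06 and 1.43 FPKM per lentivirus-circCSPP1 library, 4 leukocyte markers to 2.39 to 2.46 and 0.9 to 2.21 FPKM, and 3 endothelial markers to 0.28 to 0.62 and 0.16 to 0.56 FPKM. Among the fibroblast markers COL1A1 alone was tested, and it was lower in lentivirus-circCSPP1 (log2 fold change -0.97, adjusted p = 0.010 in limma). COL1A1 passed under 15 of 17 alternative settings and was below the stricter filter of 5 FPKM. It did not pass in limma without moderation of the variance (adjusted p = 0.052) or without lentivirus-NC replicate 1 (adjusted p = 0.0504). LUM and CD3E were at 0 in all 6 libraries. The part that the shift in epithelial markers has in the values below was not tested.

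The study names EGR1 as a target of miR-520h, a microRNA that it places between circCSPP1 and EGR1, so the microRNA and its matches in the members are shown first. It tested this link by luciferase reporters, and by mimics and inhibitors of miR-520h on EGR1 mRNA and protein. It also reported co-localization of miR-520h with EGR1 in cells and negative correlations of their levels in tissues and xenografts. In its cell assays the mimics countered effects of EGR1 overexpression. These libraries hold none of those experiments. The mature sequence in RefSeq (GRCh38.p14, chr19:53742566-53742587, plus strand) is printed with its seed, bases 2 to 8, in capitals. The same seed is carried by hsa-miR-520g-3p.
hsa-miR-520h: aCAAAGUGcuucccuuuagagu

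The shortest match counted was ACTTTG, the complement of bases 2 to 7. The 3′ UTR of EGR1, 1234 nt within exon 2, held 1 such match and 0 of the longer ones of 7 bases (CACTTTG or ACTTTGA). Of 2398 genes with a 3′ UTR within 20% of this length, 44.6% held the 6-base match and 27% a match of 7 bases. NAB1 held 2 matches of 6 bases in a 3′ UTR of 2433 nt, where 67.7% of genes of like length held at least 1. EGR3 and EGR4 held 1 match each, and EGR2 and NAB2 held 0. None of the 6 members held a match of 7 bases in the 3′ UTR used here, the longest in GENCODE release 29, against 29% of all 19074 genes. The matches in EGR1 and NAB1, with 12 bases on either side and the match in capitals, are in exon 2 of EGR1 and exon 10 of NAB1 (GRCh38, plus strand, 5′ to 3′).
EGR1 (chr5:138469169-138469198): tggttctattttACTTTGtacttgtgtttg
NAB1 (chr2:190690727-190690756): attttgttgtctACTTTGtgtgtttaacgt
NAB1 (chr2:190692043-190692072): atggaccttgcaACTTTGttgctagcttga

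Promoters are shown because SRF acts on EGR genes and EGR factors on NAB2 through known elements. Both strands of 34943 RefSeq windows of 300 bases (250 before and 50 after the start site, GRCh38.p14) were searched for the CArG box, the core of the serum response element, for the EGR site GCGNGGGCG and for the cAMP response core ACGTCA. A CArG box was in 1.3% of windows, an EGR site in 9.41% and ACGTCA in 7.97%. The window of EGR1 held 2 CArG boxes, a number reached or passed by 11 windows in all (0.0315%), beside 1 EGR site and 2 copies of ACGTCA. One of the 3 windows of EGR2 held 1 CArG box, and none was found in the windows of EGR4, NAB1 or NAB2. NAB2 held 1 EGR site, and the 3 windows of NAB1, of which a pair overlap, held 3, 4 and 0. EGR4 held 2 copies of ACGTCA. EGR3 was not analysed here for promoter motifs. Such matches describe the letters only. The printed stretches have the match in capitals, with positions counted from the start site.
EGR1 CArG box, -105 to -96 (chr5:138465364-138465393, plus strand): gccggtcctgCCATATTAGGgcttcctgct
EGR1 CArG box, -83 to -74 (chr5:138465386-138465415, plus strand): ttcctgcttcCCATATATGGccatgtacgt
EGR2 CArG box, -71 to -62 (chr10:62816418-62816447, minus strand): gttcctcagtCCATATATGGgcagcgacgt
NAB2 EGR site, -62 to -54 (chr12:57089042-57089071, plus strand): tgtgcgtcctGCGGGGGCGgaggcgcggag

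FPKM is per length, so the levels of the 6 genes were set side by side. It does not remove an effect of GC content, given below, and the transcript lengths used by the authors are not known. In lentivirus-NC, NAB1 was the highest with 29.48 to 31.48 FPKM, followed by NAB2 with 16.44 to 18.41 FPKM and EGR1 with 2.73 to 4.05 FPKM. These 3 ranges did not overlap. EGR3 (0.15 to 0.22 FPKM), EGR2 (0.09 to 0.22 FPKM) and EGR4 (0.05 to 0.10 FPKM) were all far below, and EGR2 overlapped with both of its neighbors in this order. In lentivirus-circCSPP1 the order of the upper 3 by mean was the same, but the range of NAB1 (20.59 to 40.7 FPKM) now took in that of NAB2 (23.58 to 29.37 FPKM), and EGR1 stood at 8.63 to 11.31 FPKM. The ranges of EGR2, EGR3 and EGR4 overlapped in this group.

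**Figure D1:**
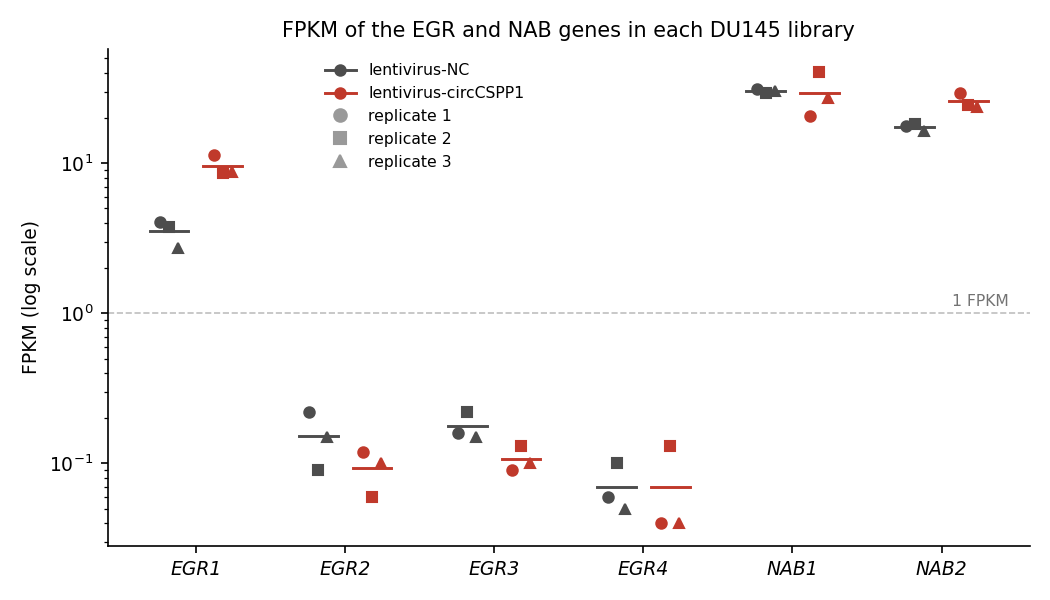
FPKM of the 6 genes (x axis) in each library on a log scale (y axis), lentivirus-NC in gray and lentivirus-circCSPP1 in red; circles, squares and triangles are replicates 1, 2 and 3, horizontal bars the mean of 3 libraries, and the dashed line 1 FPKM. EGR1 and NAB2 sit higher in all 3 lentivirus-circCSPP1 libraries, NAB1 is scattered around its control level there, and EGR2, EGR3 and EGR4 stay under 0.22 FPKM or at it.

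EGR1 (ENSG00000120738; GRCh38 chromosome 5, 138465490 to 138469315, plus strand, 1 transcript of 2 exons and 3138 nt) was at 4.05, 3.79 and 2.73 FPKM in the 3 control libraries, in the order of their replicate numbers, against 11.31, 8.63 and 8.79 FPKM with lentivirus-circCSPP1. Every lentivirus-circCSPP1 library was thus at more than 2 times the highest control. The mean rose from 3.52 ± 0.699 to 9.58 ± 1.5 FPKM (SD, n = 3 each), 2.72-fold. On the scale of log2(FPKM + 1) it rose by 1.23 with a standard error of 0.16 (adjusted p = 0.0059, limma with Benjamini-Hochberg adjustment over all tested genes), rank 30 from the top of 12322. The values rest on 312 to 1150 fragments per library. EGR1 was among the less abundant of the tested genes, 27.2% of which had a lower mean. The study picked EGR1 from genes that differed between these same libraries, so its rise here is not independent evidence. In bulk RNA, a change in the number of cells that express a gene and in the RNA per cell cannot be told apart.

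NAB2 (ENSG00000166886; chromosome 12, 57088894 to 57095476, plus strand), the EGR-inducible corepressor, was at 17.73, 18.41 and 16.44 FPKM in the controls, against 29.37, 24.49 and 23.58 FPKM with lentivirus-circCSPP1. No control reached the lowest of the latter. The mean rose from 17.5 ± 1.0 to 25.8 ± 3.11 FPKM (SD, n = 3 each), 1.47-fold, with a log2 fold change of 0.53 and a standard error of 0.11 (adjusted p = 0.028 in limma), rank 454 from the top. The adjusted p was 0.11, 0.096 and 0.12 in limma without lentivirus-NC replicate 1, 2 or 3 and 0.065 without lentivirus-circCSPP1 replicate 3, with log2 fold changes of 0.49 to 0.59. It was also above 0.05 with no filter on low values (0.053) and without moderation of the variance (0.069). NAB2 and STAT6 share 69 nt on opposite strands, and whether the counting used the strand is not given in the sources used here. STAT6 did not pass the test, at 115.8 ± 4.39 FPKM in the control and 102.2 ± 18 FPKM in the lentivirus-circCSPP1 libraries (SD, n = 3 each; log2 fold change -0.19, adjusted p = 0.36 in limma).

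NAB1 (ENSG00000138386; chromosome 2, 190646746 to 190692766, plus strand), the corepressor expressed more constitutively, was at 31.48, 29.48 and 30.25 FPKM in the controls, against 20.59, 40.7 and 27.21 FPKM with lentivirus-circCSPP1. The lentivirus-circCSPP1 libraries lay on both sides of the controls, replicate 2 above all of them and replicates 1 and 3 below. The means were 30.4 ± 1.01 and 29.5 ± 10.3 FPKM (SD, n = 3 each), with a log2 fold change of -0.09 and a standard error of 0.22 (adjusted p = 0.82 in limma). The coefficient of variation was 3.32% among the control libraries and 34.7% among those with lentivirus-circCSPP1. When replicate 1 of the latter was left out, the log2 fold change was 0.13 (adjusted p = 0.57) and without replicate 2 it was -0.35 (adjusted p = 0.14), both by limma, so that its direction rested on single libraries. Antisense genes overlap NAB1 by 3095 and 15823 nt and were not analysed here.

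Of the 3 tested members, EGR1 and NAB2 had an adjusted p under 0.05, both higher in lentivirus-circCSPP1. Over all 12322 tested genes the share was 11.4%, with 4.69% higher and 6.66% lower. The 2 genes were also those without overlap between the groups, as were 36.4% of all tested genes. At the thresholds of the study's pathway analysis, an unadjusted p under 0.01 with a log2 fold change of 1.5 or more in size, limma gave 0 of the 3 against 0.195% of all tested genes. EGR1 and NAB2 had an unadjusted p under 0.01 but smaller fold changes.

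**Figure D2:**
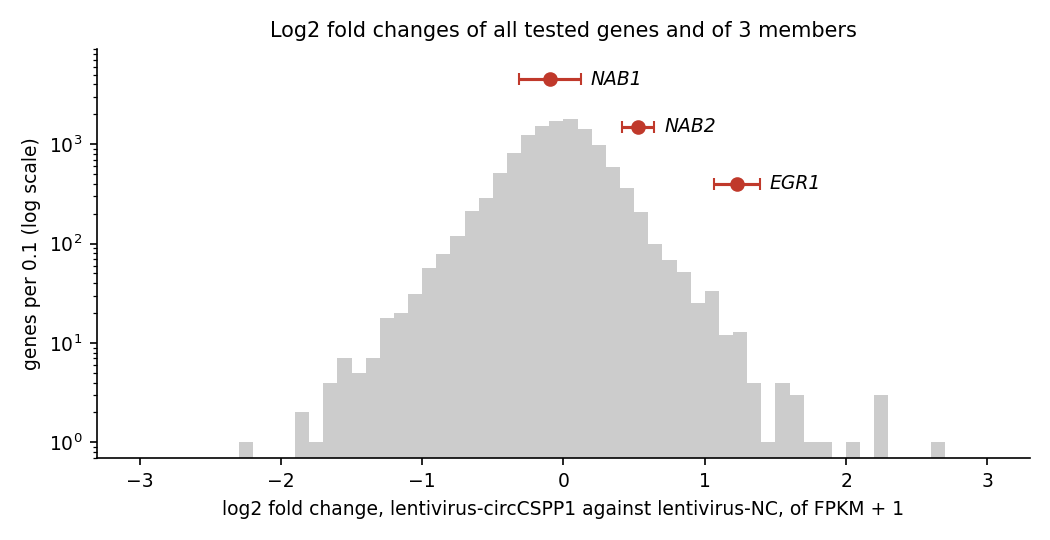
Histogram of the log2 fold change of FPKM + 1, lentivirus-circCSPP1 against lentivirus-NC (x axis), for the 12322 tested genes, with genes per bin on a log scale (y axis). Red points and bars mark EGR1 (1.23), NAB2 (0.53) and NAB1 (-0.09) with their standard errors, and the height at which they are drawn has no meaning.

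The spread of NAB1 was set beside a dependence of the libraries on GC content. Across 12305 genes with a GENCODE transcript, the departure of a library from the mean of its own group had a Spearman correlation with transcript GC content of 0.784 in lentivirus-circCSPP1 replicate 1, -0.733 in replicate 2 and -0.482 in replicate 3, and of -0.056 to 0.098 in the lentivirus-NC libraries. The 3 departures of a group sum to 0 for each gene and genes of a sample share its library, so these correlations are descriptions across genes. NAB1 is GC-poor (39.9%), NAB2 is GC-rich (62.6%) and EGR1 lies between (55.4%). Taken instead against the lentivirus-NC mean, the 1970 genes within 2 percentage points of the GC content of NAB1 had a median departure of -0.36, 0.16 and 0.02 on the log2 scale in lentivirus-circCSPP1 replicates 1, 2 and 3. The 1184 genes like NAB2 had 0.20, -0.15 and -0.07 against that mean, and the 1494 genes like EGR1 had 0.09, -0.07 and -0.02. In lentivirus-circCSPP1 replicate 3 NAB1 itself lay below every control, while the genes like it had 0.02.

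When GC content and length of the transcripts were corrected for by loess within each library, NAB1 in lentivirus-circCSPP1 was at 26.0, 35.8 and 26.2 FPKM. The SD of its log2 values in this group fell from 0.478 to 0.254, and its log2 fold change was -0.04 (adjusted p = 0.85 in limma). Replicate 2 still stood above every control, so the correction narrowed the spread of NAB1 without closing it. For NAB2 the corrected values were 25.8, 27.5 and 24.9 FPKM, with an SD of 0.070 in place of 0.163 on the log2 scale, and the rise was 0.57 with a standard error of 0.066 (adjusted p = 0.0018 in limma). EGR1 had 10.7, 9.14 and 9.06 FPKM and rose by 1.25 with a standard error of 0.13 (adjusted p = 0.0012 in limma). The rise of EGR1 and of NAB2 was therefore as large with the correction as without it.

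**Figure D3:**
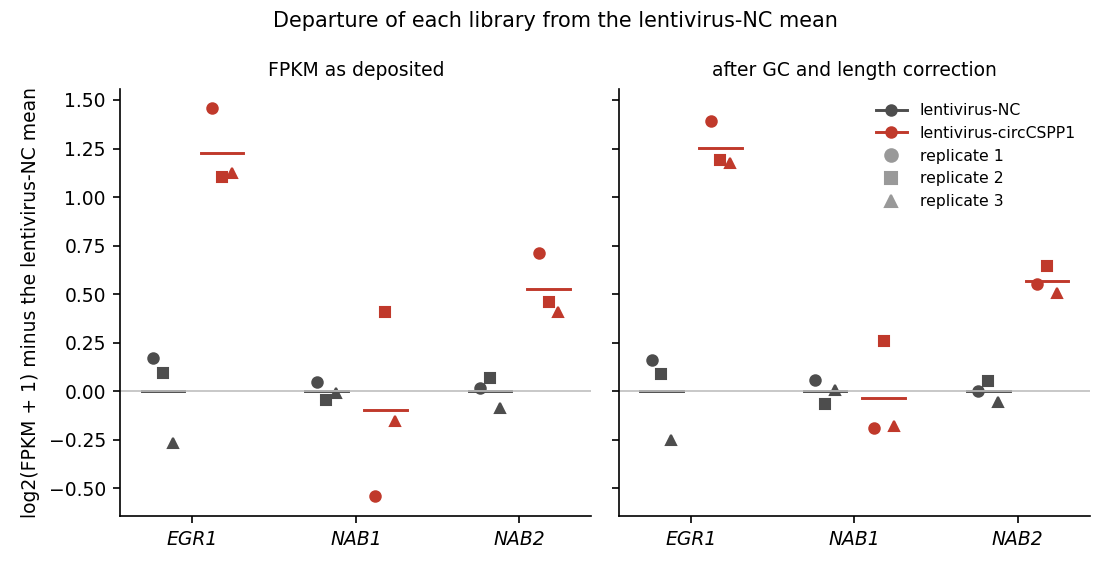
Departure of each library from the lentivirus-NC mean of the same gene, in log2(FPKM + 1) (y axis), for EGR1, NAB1 and NAB2 (x axis), as deposited (left) and after the GC and length correction (right); gray is lentivirus-NC, red lentivirus-circCSPP1, symbols are replicates and bars the mean of 3 libraries. The red NAB1 and NAB2 points draw together on the right, while the EGR1 and NAB2 means stay at 1.25 and 0.57.

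EGR2, EGR3 and EGR4, which are induced in activated lymphocytes, Schwann cells and neurons, were near the floor of these libraries. EGR3 (ENSG00000179388; chromosome 8, 22687659 to 22693302, minus strand) was at 0.16, 0.22 and 0.15 FPKM in the controls, against 0.09, 0.13 and 0.10 FPKM with lentivirus-circCSPP1. Each of the latter was lower than each control, and the exact two-sided permutation test gave p = 0.10, the smallest that 3 against 3 libraries allow. The values correspond to 13 to 28 fragments per library, 72 and 45 per group. Among the 4794 genes under the filter with a value above 0 in some library, 12.9% were lower without overlap between the groups, and limma with no filter gave EGR3 an adjusted p of 0.17. The antisense gene that shares 3153 nt with EGR3 was not analysed here.

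EGR2 (ENSG00000122877; chromosome 10, 62811996 to 62919900, minus strand) was at 0.22, 0.09 and 0.15 FPKM in the controls, against 0.12, 0.06 and 0.10 FPKM with lentivirus-circCSPP1, and the groups overlapped (exact two-sided permutation test, p = 0.30). EGR4 (ENSG00000135625; chromosome 2, 73290929 to 73293705, minus strand) was at 0.06, 0.10 and 0.05 FPKM and at 0.04, 0.13 and 0.04 FPKM (exact two-sided permutation test, p = 1.0). EGR2 rested on 6 to 19 fragments per library and EGR4 on 3 to 11, and what difference such counts could show was not tested. The summed FPKM of EGR2, EGR3 and EGR4 was 0.44, 0.41 and 0.35 in lentivirus-NC and 0.25, 0.32 and 0.24 in lentivirus-circCSPP1 (exact two-sided permutation test, p = 0.10).

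Because corepressor and activator act as a pair, their ratio was taken within each library. NAB2 over EGR1 was 4.38, 4.86 and 6.02 in lentivirus-NC and 2.60, 2.84 and 2.68 in lentivirus-circCSPP1. The ratio was lower in all 3 lentivirus-circCSPP1 libraries, with means of 5.09 ± 0.846 and 2.71 ± 0.122 (SD, n = 3 each; exact two-sided permutation test, p = 0.10, the smallest possible). Both genes were higher, and EGR1 by more. The FPKM of NAB1 and NAB2 together over that of the 4 EGR genes went from 12.5 ± 2.31 to 5.74 ± 1.49 (SD, n = 3 each; exact two-sided permutation test, p = 0.10). EGR1 held 88.6% to 90.2% of the summed EGR FPKM in lentivirus-NC and 96.4% to 97.8% in lentivirus-circCSPP1. NAB2 over NAB1 was 0.563, 0.625 and 0.544 in lentivirus-NC and 1.43, 0.602 and 0.867 in lentivirus-circCSPP1, and the groups overlapped (exact two-sided permutation test, p = 0.20). NAB2 exceeded NAB1 only in lentivirus-circCSPP1 replicate 1, the library in which GC-poor genes were low.

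**Figure D4:**
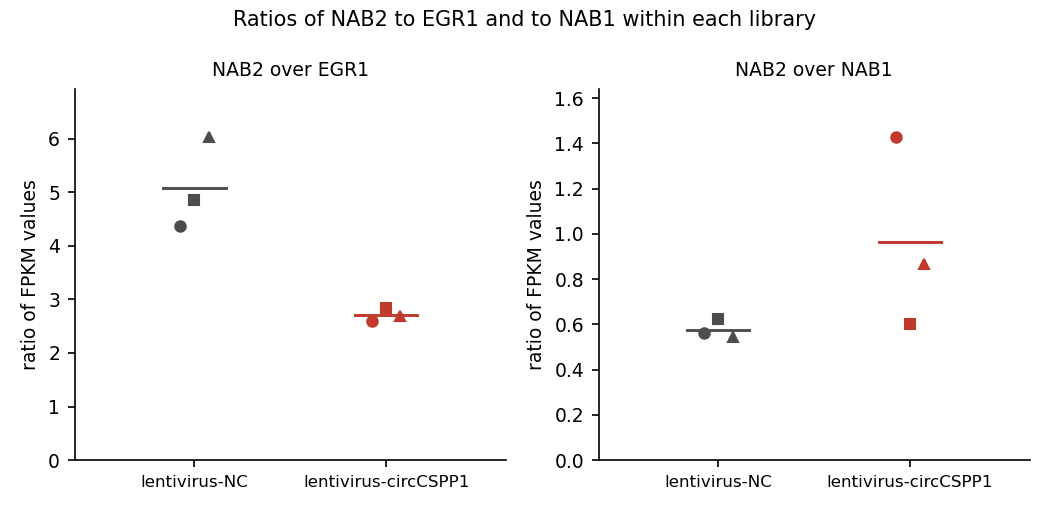
Ratio of FPKM values within each library (y axis) for NAB2 over EGR1 (left) and NAB2 over NAB1 (right), by group (x axis); circles, squares and triangles are replicates 1, 2 and 3 and bars the mean of 3 libraries. The left ratio runs from 4.38 to 6.02 in lentivirus-NC and from 2.60 to 2.84 in lentivirus-circCSPP1, and on the right lentivirus-circCSPP1 replicate 1 stands alone at 1.43.

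The genes around the members were read from lists. Of 7 upstream factors, SRF, the ternary complex factors ELK1, ELK3 and ELK4, the SRF coactivators MRTFA and MRTFB and CREB1, all were tested. In limma 0 had an adjusted p under 0.05, beside 4.69% higher and 6.66% lower over all tested genes. With the GC and length correction, and likewise without lentivirus-circCSPP1 replicate 1, 1 was higher and 0 lower, where 14.8% of all genes were higher and 13.8% lower with the correction and 13.1% were higher and 15.4% lower without that library. Their median log2 fold change was 0.11, against -0.03 over all tested genes. SRF was at 27.7 ± 0.322 and 35.0 ± 4.22 FPKM (log2 fold change 0.32, adjusted p = 0.10) and CREB1 at 11.6 ± 0.769 and 9.16 ± 0.852 FPKM (-0.31, adjusted p = 0.11; SD, n = 3 each, limma).

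Of 14 partners of NAB and EGR proteins, mainly NuRD subunits and coactivators, 1 rose and 0 fell (median log2 fold change 0.06). The one that rose was CREBBP, an acetyltransferase and coactivator that binds EGR1, from 30.3 ± 0.692 to 41.7 ± 3.28 FPKM (SD, n = 3 each; log2 fold change 0.45, adjusted p = 0.024 in limma). Its adjusted p lay between 0.061 and 0.12 without any 1 control library or without lentivirus-circCSPP1 replicate 3. The NuRD ATPases bound by NAB proteins did not pass, with CHD3 at -0.05 (adjusted p = 0.78) and CHD4 at -0.01 (adjusted p = 0.92 in limma). The 1 of 14 stands beside 4.69% higher over all tested genes. With the GC and length correction 4 partners were higher and 0 lower, where 14.8% of all genes were higher and 13.8% lower, and nothing particular to the partners was read from so short a list. Of 5 tested factors that bind similar GC-rich sites, SP1, SP2, SP3, SP4 and ZBTB7A, 0 passed in limma, and WT1 was below the filter. With the correction 2 of the 5 were higher, beside 14.8% of all genes. Of 5 factors that control the decay of short-lived mRNAs, 2 rose and 0 fell, beside 4.69% higher and 6.66% lower over all tested genes: ZFP36L2 (log2 fold change 0.40, adjusted p = 0.042 in limma) and KHSRP (0.29, adjusted p = 0.031 in limma), both of which promote decay. Neither passed when any 1 library other than lentivirus-circCSPP1 replicate 1 was left out (adjusted p 0.057 to 0.18 in limma), and KHSRP did not pass with quantile normalization (adjusted p = 0.065). Their list had a median log2 fold change of 0.285, against -0.03 over all tested genes. With the GC and length correction 2 were higher and 0 lower, beside 14.8% and 13.8% of all genes. The same counts were found without lentivirus-circCSPP1 replicate 1, beside 13.1% higher and 15.4% lower. Nothing particular to these 5 factors was read from so short a list.

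The list of genes described as direct EGR1 targets had 36 names, of which 35 were in the table and 29 were tested. In limma 6 were higher, 3 were lower and 20 did not pass an adjusted p of 0.05, beside 4.69% higher and 6.66% lower over all tested genes. The median log2 fold change was 0.24, against -0.03 over all tested genes. The list was chosen with earlier results of these data known, so these numbers are no test of EGR1 targets as a set. JUN, an AP-1 subunit, was at 19.03, 20.16 and 18.68 FPKM in the controls, against 41.24, 38.44 and 38.34 FPKM with lentivirus-circCSPP1 (log2 fold change 0.99, adjusted p = 0.0019 in limma). GADD45B, a stress-response gene, went from 86.2 ± 9.76 to 165.9 ± 11.8 FPKM (0.94, adjusted p = 0.0037), HMOX1, the heme oxygenase, from 28.95 ± 1.11 to 53.1 ± 3.52 FPKM (0.85, adjusted p = 0.0032) and RHOB, a small GTPase, from 16.3 ± 0.326 to 28.9 ± 2.80 FPKM (0.79, adjusted p = 0.0056; SD, n = 3 each, limma). GADD45A (0.63, adjusted p = 0.028) and ID3, an inhibitor of helix-loop-helix factors (0.41, adjusted p = 0.036 in limma), were the other two that rose.

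PTGES, the prostaglandin E synthase, fell instead, from 109 ± 2.38 to 63.9 ± 6.54 FPKM (SD, n = 3 each; log2 fold change -0.76, adjusted p = 0.0049 in limma). The matrix protein gene FN1 (-0.65, adjusted p = 0.026) and HPSE, which encodes heparanase (-0.43, adjusted p = 0.038 in limma), were the other two that fell. Growth factor genes tied to EGR1 did not pass: PDGFB was at 0.50 on the log2 scale (adjusted p = 0.055), PDGFA 0.31 (adjusted p = 0.15) and VEGFA 0.25 (adjusted p = 0.41), all in limma. Nor did the autophagy genes MAP1LC3B (0.28, adjusted p = 0.30) and ATG4B (0.24, adjusted p = 0.24 in limma). GADD45B, HMOX1, JUN, RHOB and PTGES were called under all 18 alternative settings and the other 4 under 10 to 12 of 18. Leaving out 1 library gave 4 higher and 1 lower genes without lentivirus-NC replicate 1 or 2 or lentivirus-circCSPP1 replicate 3, 5 and 1 without lentivirus-NC replicate 3, 6 and 2 without lentivirus-circCSPP1 replicate 2, and 10 and 3 without lentivirus-circCSPP1 replicate 1, where 13.1% of all tested genes were higher and 15.4% lower. The GC and length correction gave 12 higher and 3 lower genes, beside 14.8% and 13.8% of all genes. Some of these genes also respond to other stress and growth signals, and the part of EGR1 in their values was not tested.

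**Figure D5:**
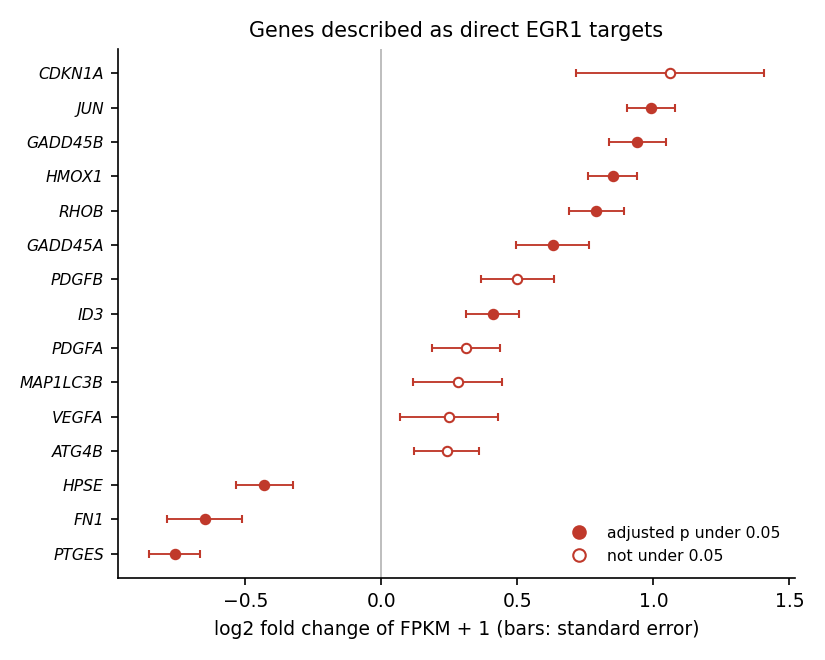
Log2 fold change of FPKM + 1, lentivirus-circCSPP1 against lentivirus-NC (x axis), with its standard error for 15 of the 29 tested genes of the list (y axis, ordered by value), the 9 that passed and 6 others named in the text; genes not drawn did not pass and lie on both sides of 0, and filled points have an adjusted p under 0.05 in limma. The 6 filled points on the right are led by JUN at 0.99, the 3 on the left by PTGES at -0.76, and CDKN1A at 1.06 is open (adjusted p = 0.092 in limma).

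The pattern of each library relative to the lentivirus-NC mean was compared across the 6 libraries by the root mean square difference in log2(FPKM + 1). The 5 tested genes nearest to EGR1 were DDIT4 (0.093), DUSP5 (0.095), MT1X (0.099), SLC30A1 (0.10) and TPRA1 (0.123). DDIT4 restrains mTORC1, DUSP5 is an ERK phosphatase, and MT1X, whose reads can be shared with near-identical metallothioneins, and SLC30A1 respond to zinc. NAB2 came at rank 318 with 0.505. The nearest to NAB2 were NXT1 (0.032), AZIN2 (0.036), PCGF1 (0.036), PFDN2 (0.045) and C1orf35 (0.048), and EGR1 was at rank 7485. The measure takes in the size of a rise, so these ranks also reflect the unlike log2 fold changes of EGR1 (1.23) and NAB2 (0.53).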

How the data were processed

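Polyadenylated RNA of DU145 cells was sequenced from both ends on an Illumina NovaSeq, with 3 lentivirus-NC and 3 lentivirus-circCSPP1 libraries, grouped by their labels. The authors deposited FPKM values rounded to 2 decimals. FPKM is relative to the library total, so a value also moves with other genes. The build is hg38 per the submitters' processing notes. The aligner, quantifier and annotation are not given in the sources used here. All columns of per-sample values were used.

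FPKM values were taken to log2(FPKM + 1), a scale that understates the change of low genes, and genes averaging 1 FPKM or more were fitted by limma 3.58.1 under R 4.3.3 (trend, two-sided, no covariate, Benjamini-Hochberg over 12322 genes). Members below the filter got an exact permutation test. The fit was tested on simulated data. Depth was read from genes with a single short transcript, where 93.2% to 98.5% of values fell within 0.15 of a whole fragment. Fragments per gene follow from it and the GENCODE release 29 transcript length, which may differ from that of the authors. Locations, GC content and 3′ UTRs came from the same release. RefSeq gave microRNA and promoter sequences.

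Named were the members, every list gene with an adjusted p under 0.05, the 5 genes most like EGR1 and NAB2 and CSPP1. SRF, CREB1, CHD3, CHD4, STAT6, TNFSF10, CDKN1A, the markers and the listed targets that did not pass were added with their values in view. A few listed genes are not reported here. The members and all lists were chosen with earlier results of these data known. Alternatives were other pseudocounts, filters, scalings, variance models, the GC and length correction, a replicate block and leaving out each library. Figures were drawn with matplotlib 3.10.9.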

Additional observations from a re-analysis of the deposited data

How the results depend on the processing

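EGR1 was higher with an adjusted p under 0.05 in limma under all 18 alternatives (log2 fold change 1.10 to 1.45, adjusted p 0.0012 to 0.043). NAB2 was higher under all 18 (0.44 to 0.59) and passed under 12. It did not pass with no filter (0.53, adjusted p = 0.053), with no moderation of the variance (0.53, adjusted p = 0.069) or without lentivirus-NC replicate 1, 2 or 3 or lentivirus-circCSPP1 replicate 3, and its log2 fold change lay between 0.44 and 0.59 when 1 library was left out. For NAB1 the same range was -0.35 to 0.13, and it turned to higher without lentivirus-circCSPP1 replicate 1 (0.13). Of the genes below the filter, EGR2 moved from -0.08 to -0.37 and -0.63 with pseudocounts of 0.1 and 0.01, EGR3 from -0.09 to -0.42 and -0.67 and to -0.042 with quantile normalization, and EGR4 from -0.0008 to -0.13 with a pseudocount of 0.01. A larger pseudocount compresses low values by construction.

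Over all tested genes, 1399 had an adjusted p under 0.05, and 3509 (1815 higher, 1694 lower) with the GC and length correction, 834 with no moderation, 923 with the replicate block, 2719 with both the block and the correction, and 293 to 3514 when 1 library was left out, lowest without lentivirus-NC replicate 1 and highest without lentivirus-circCSPP1 replicate 1. The cause was not tested. Libraries with the same number did not deviate together (correlations 0.0734, 0.0065 and 0.0572 across genes), so the numbers were not taken as pairs. With the replicate block EGR1 (1.23, adjusted p = 0.0084) and NAB2 (0.53, adjusted p = 0.049) passed and NAB1 (-0.09, adjusted p = 0.80) did not, and CREBBP (0.057), ZFP36L2 (0.11), KHSRP (0.093), GADD45A (0.053), ID3 (0.075) and HPSE (0.090) lost their calls (adjusted p in limma). No scaling moved the median of all tested genes by over 0.1. The depth limits EGR2, EGR3 and EGR4, at 3 to 28 fragments per library.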

Other observations

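Among the 6 listed EGR1 targets below the filter, TNFSF10, which encodes the death ligand TRAIL, was at 0.37, 0.32 and 0.41 FPKM in lentivirus-NC and listed at 0 in all 3 lentivirus-circCSPP1 libraries. It was picked after its values were seen and was not tested. PTGS2, TNF, IGF2 and TIMP3 overlapped between the groups. CDKN1A, the cyclin-dependent kinase inhibitor p21, was at 37.34, 34.74 and 15.55 FPKM in lentivirus-NC and at 41.01, 66.0 and 72.17 FPKM in lentivirus-circCSPP1.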
